A study of Mus musculus with 3 samples.

Results

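The SLC12 family comprises the cation-chloride cotransporters, membrane proteins that carry chloride together with sodium, potassium or both. This account covers 9 genes of the family and of the kinase pathway that controls it, namely *Slc12a1*, *Slc12a2*, *Slc12a3*, *Slc12a4*, *Slc12a5*, *Slc12a7*, *Stk39*, *Oxsr1* and *Wnk1*. They were chosen by gene name in the scanner files, 9 of 27845 names, and all of their probes were taken, which gave 17 of the 41174 probes on the array. The tissue was choroid plexus epithelium (CPE), the cell layer that secretes cerebrospinal fluid (CSF), of 3 healthy adult C57BL/6 mice. It was cut from cryosections by laser, and the amplified RNA of each mouse was labelled with Cy5 and hybridised to a separate 2-colour Agilent array. The common reference on all 3 arrays was RNA of C57BL/6 retinal pigment epithelium (RPE) and choroid, labelled with Cy3. No array had the dyes reversed, and dye and tissue effects cannot be told apart in a ratio.

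Sodium-coupled members (NKCC1, NKCC2 and NCC) normally bring chloride into cells, and potassium-coupled members (KCC) normally let it out. In the choroid plexus NKCC1 lies in the apical membrane facing the CSF and is known for a part in CSF secretion and in clearing potassium from the CSF. WNK kinases phosphorylate SPAK and OSR1, and these in turn phosphorylate the cotransporters, which activates the NKCC and NCC branch and inhibits the KCC branch.

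The tissue label was checked against markers. All 12 CPE markers were well above background in the CPE of each mouse, and 11 were called higher in CPE than in the reference. Summed over the list, their linear intensities lay between 286154 and 335302 in CPE and between 41673 and 46914 in the reference. The CPE sums are lower limits, since *Ttr* and *Enpp2* were saturated there on all 3 arrays and *Clic6* and *Igfbp2* on 1. Of 9 RPE markers, 8 were called lower in CPE, with sums of 3675 to 5433 there and 199029 to 210697 in the reference. The reference sums are lower limits, since *Dct* was saturated there on all 3 arrays. Markers of other cells were not absent from CPE. *Dct* lay at percentile 92.5 of intensity there. Macrophage markers summed to between 8132 and 8377 in CPE, with 2 of 6 above the 90th percentile, although 4 of 6 were called lower there. Stroma markers summed to between 18709 and 21147 in CPE, with 5 of 6 above the 90th percentile of intensity, although 5 of 6 were called lower there than in the reference. Called higher in CPE were *Cnp*, 1 of 4 tested oligodendrocyte markers, *Tie1*, 1 of 6 endothelium markers, and *Aldh1l1*, 1 of 4 astrocyte markers. Another astrocyte marker, *Aqp4*, was called lower, at a log2 ratio of −1.28 against 1.01 for *Aldh1l1*, and the median of the 4 was −0.064. No oligodendrocyte or endothelium marker was called lower. The arrays differed in background. In the CPE channel 46.0% to 85.6% of probes were well above it, most of them on the array of mouse 3, where the background the scanner software used was also highest. Arrays of mice 1 and 3 were scanned on the same day and that of mouse 2 on another.

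Before the values, the upstream sequences of the genes that stood furthest from the reference are shown, since the members that differed did so in both directions. RefSeq promoter windows (GRCm38.p6) were matched by symbol for 8 of the 9 genes, and *Slc12a2* was the one not matched. Each run holds the 250 bases before an annotated start, 5′ to 3′ on the strand of the gene, with GGGCGG or its reverse complement, the core of a GC box, in capitals. *Slc12a4* (chr8:105966116-105966365, minus strand) and *Stk39* (chr2:68471982-68472231, minus strand) were higher in CPE. *Slc12a5* was lower and has starts with windows at chr2:164960596-164960845 and chr2:164967738-164967987, both on the plus strand.
Slc12a4: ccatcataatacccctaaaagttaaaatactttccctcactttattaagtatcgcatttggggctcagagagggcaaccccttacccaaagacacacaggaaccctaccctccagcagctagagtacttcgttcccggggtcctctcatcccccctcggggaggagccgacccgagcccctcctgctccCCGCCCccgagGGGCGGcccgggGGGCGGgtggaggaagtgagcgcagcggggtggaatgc
Stk39: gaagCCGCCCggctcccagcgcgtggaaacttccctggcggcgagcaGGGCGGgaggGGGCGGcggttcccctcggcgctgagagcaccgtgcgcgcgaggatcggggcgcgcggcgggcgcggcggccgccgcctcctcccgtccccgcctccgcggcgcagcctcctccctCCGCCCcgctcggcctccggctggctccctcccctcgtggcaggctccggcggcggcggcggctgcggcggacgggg
Slc12a5, first start: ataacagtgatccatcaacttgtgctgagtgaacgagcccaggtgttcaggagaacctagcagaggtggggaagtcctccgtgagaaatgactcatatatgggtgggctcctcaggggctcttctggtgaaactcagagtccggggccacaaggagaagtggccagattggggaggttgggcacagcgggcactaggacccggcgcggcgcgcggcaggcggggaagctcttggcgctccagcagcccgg
Slc12a5, second start: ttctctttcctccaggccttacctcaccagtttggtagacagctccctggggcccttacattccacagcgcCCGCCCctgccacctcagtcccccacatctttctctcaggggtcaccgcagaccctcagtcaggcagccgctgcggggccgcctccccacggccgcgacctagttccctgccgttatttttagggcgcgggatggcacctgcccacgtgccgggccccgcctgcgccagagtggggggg
GGGCGG occurred 3 times in the *Slc12a4* window, 4 times in that of *Stk39*, 0 times at the first *Slc12a5* start and once at the second. Among the other matched members it occurred 3 and 6 times at the *Slc12a7* starts, whose windows overlap and share sites, and 4 times for *Wnk1*. For *Slc12a3*, *Oxsr1* and *Slc12a1* the counts were 2, 1 and 0. The count thus did not set *Slc12a4* and *Stk39* apart from the other matched members, and it is not known for *Slc12a2*. Of all 32851 promoter windows of this length, 32.7% held it on either strand. The *Stk39* window had 82.4% G and C, that of *Slc12a4* 60.8%, and those of *Slc12a5* 61.2% and 67.2%. The median over all windows was 52.4%. CACGTG, the core of an E-box, was present at the second *Slc12a5* start and in 6.02% of all windows, and TATAAA, present in 12.4%, was in none of the 4 runs. Among the other matched members, CACGTG was also at the second *Slc12a7* start, and TATAAA was in the *Slc12a3* window. These matches describe letters in a window and are not measured binding sites.

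The question of the comparison was which of these genes the CPE expresses differently from the reference, and at what rank on the array. Among the 8 genes with a tested probe, taken at their brightest, *Slc12a2*, *Slc12a4* and *Stk39* were higher in CPE by 4.33-fold to 6.12-fold, and *Slc12a5* was 24.1-fold lower. *Slc12a1*, *Slc12a7*, *Oxsr1* and *Wnk1* were not called. A gene was called when it differed by 2-fold or more with an adjusted p below 0.05, and of all 17842 genes tested in this way 19.1% were called, 8.03% higher and 11.1% lower. The median log2 ratio was 0.60 over the 8 genes and −0.041 over all tested genes. Over probes, 3 of 14 tested member probes were called higher and 3 lower, against 7.09% and 10.2% (17.3% together) of the 25843 probes tested. The direction of calls over the array depended on the scaling: 41.1% of called probes were higher in CPE with loess and 67.0% with median centring. The median log2 ratio of all tested probes was −0.040 with loess and 0.091 with median centring, but the change was not the same for every probe. *Slc12a2*, *Slc12a4* and *Stk39* moved from 2.35, 2.61 and 2.12 to 3.04, 3.34 and 2.89, and the dim tested *Slc12a1* probe from 0.59 to 0.42. P-values measure the spread between 3 mice against 1 reference RNA, and leave out any spread of the reference tissue between animals. All of the fits below had values on all 3 arrays.

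**Figure D1:**
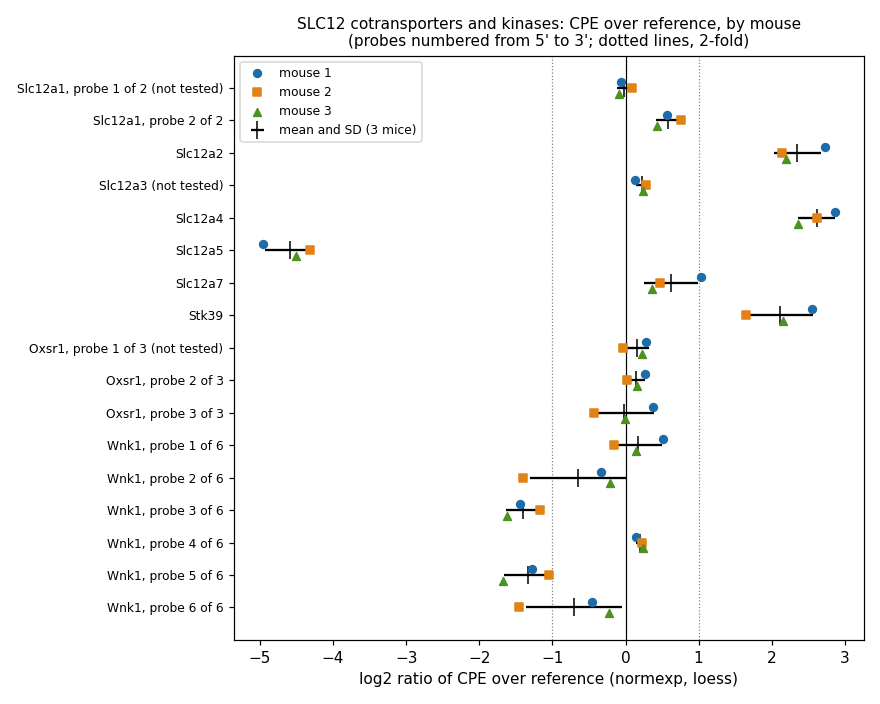
Log2 ratio of CPE over reference (x axis) for the 17 member probes (y axis), with a point for each of the 3 mice, the mean as a tick and the SD as a bar; dotted lines mark 2-fold. *Slc12a2*, *Slc12a4* and *Stk39* lay above 1.6 in every mouse, and *Slc12a5* lay below −4.3 in every mouse.

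Of the sodium-coupled cotransporters, *Slc12a2*, which encodes NKCC1, was higher in CPE. Its only probe (chromosome 18, 58071427 to 58071486, mm8, plus strand) had log2 intensities of 12.41, 12.01 and 11.39 in the CPE of mice 1, 2 and 3. In the reference channel of the same arrays it had 9.69, 9.87 and 9.20. The 3 CPE values all lay above the 3 reference values. The log2 ratios were 2.72, 2.14 and 2.20, with a mean of 2.35 ± 0.32 (SD, n = 3), which was 5.10-fold (limma, SE 0.18, adjusted p 7.36e-05). Array 3 was the lowest in both channels, although the reference RNA was the same on every array.

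*Slc12a1* encodes NKCC2, the cotransporter of the thick ascending limb of the kidney. Its 3′ probe (chromosome 2, 124920929 to 124920988) had CPE intensities of 7.64, 7.84 and 7.41 on the log2 scale and reference intensities of 7.08, 7.08 and 6.98. The CPE values were the higher ones on every array, but the difference stayed under 2-fold, at 0.59 ± 0.17 (SD, n = 3; limma adjusted p 0.0204). In the reference this probe was well above background on 2 of the 3 arrays. With the scanner software's own log ratio it was called higher, at 1.61 (adjusted p 0.0254). The 5′ probe (124886749 to 124886808) was well above background on 1 array in each channel, that of mouse 3, and was not tested.

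*Slc12a3* encodes NCC, the thiazide-sensitive cotransporter of the distal convoluted tubule. Its probe (chromosome 8, 97240865 to 97240924) had CPE intensities of 6.92, 7.17 and 8.47 and reference intensities of 6.79, 6.88 and 8.23. It was well above background on array 3 alone, in both channels, and was not tested. The rise on array 3 was shared by the reference channel.

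Of the potassium-coupled branch, *Slc12a4*, which encodes the widely expressed KCC1, had the largest positive ratio of the 9 genes. Its probe (chromosome 8, 108832912 to 108832971, minus strand) had CPE intensities of 12.96, 12.81 and 12.73 and reference intensities of 10.10, 10.18 and 10.37. The mice were close together, and the SD in CPE, 0.12, lay at the 8.75th percentile of SDs over the 17947 probes measured above background in both dyes on every array. The log2 ratios were 2.86, 2.62 and 2.36, with a mean of 2.61 ± 0.25 (SD, n = 3), which was 6.12-fold (limma, SE 0.17, adjusted p 3.59e-05). Its ratios overlapped those of *Slc12a2* between mice, although within each mouse *Slc12a4* had the larger ratio. The difference between the 2 genes was not tested.

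*Slc12a7* encodes KCC4, a KCC expressed in epithelia. Its probe (chromosome 13, 74282299 to 74282358) had CPE intensities of 10.66, 9.95 and 9.99 and reference intensities of 9.62, 9.48 and 9.63. CPE was higher on every array, and mouse 1 stood above the other mice. The mean log2 ratio of 0.62 ± 0.36 (SD, n = 3) was under 2-fold (limma adjusted p 0.0305). With median centring it was called higher, at 1.18 (adjusted p 0.0285), and without mouse 1 it was 0.41 (adjusted p 0.276).

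*Slc12a5* encodes KCC2, the chloride extruder of neurons, and was the one cotransporter lower in CPE. Its probe (chromosome 2, 164690814 to 164690873) had CPE intensities of 8.04, 8.69 and 8.61 and reference intensities of 13.00, 13.00 and 13.12. The channels were far apart on every array, and the probe was well above background in all CPE samples. The log2 ratios were −4.96, −4.31 and −4.51, with a mean of −4.59 ± 0.33 (SD, n = 3; limma, SE 0.18, adjusted p 6.72e-06). Of 8 neuron markers, 4 were also called lower in CPE and 0 higher, against 11.1% and 8.03% of all tested genes. The summed intensity of these markers was 1860 to 2985 in CPE and 17962 to 20448 in the reference. In the CPE of all mice 7 of these markers were well above background, and *Slc17a7* was in that of 1 mouse. All 8 photoreceptor markers on the array were called lower in CPE, with sums of 5008 to 6791 in CPE and 172940 to 178334 in the reference. The part of neuronal and photoreceptor RNA in the *Slc12a5* ratio was not tested. In such bulk samples, fewer cells of a type and less RNA per cell cannot be told apart.

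**Figure D2:**
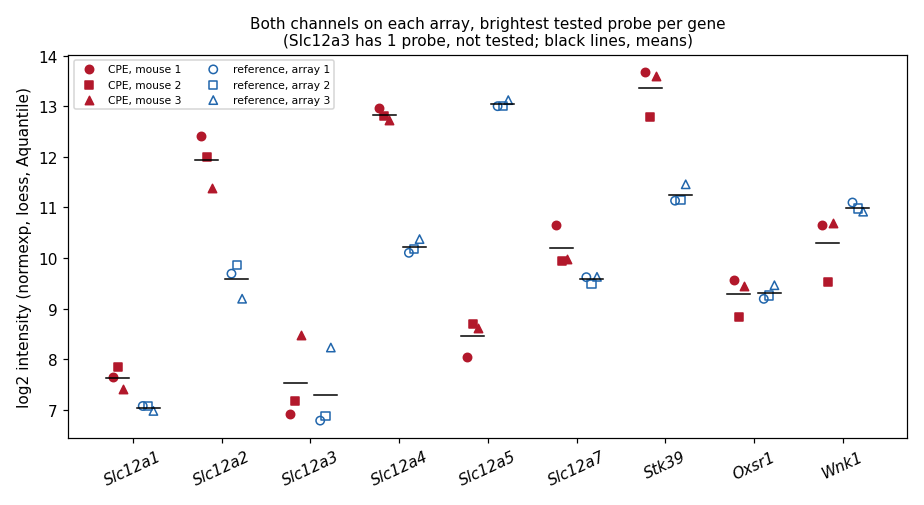
Log2 intensity after normexp, loess and Aquantile (y axis) of the CPE channel (filled red) and the reference channel (open blue) on the arrays of mice 1 to 3, for 1 probe of each gene (x axis); black lines are means. Channels were apart on every array for *Slc12a2*, *Slc12a4*, *Stk39* and *Slc12a5*, and *Slc12a3* rose on array 3 in both.

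Of the kinases, *Stk39*, which encodes SPAK, was higher in CPE. Its probe (chromosome 2, 68012617 to 68012676, minus strand) had CPE intensities of 13.68, 12.80 and 13.61 and reference intensities of 11.13, 11.15 and 11.46. Mouse 2 was the lowest CPE sample and still lay above every reference value. The log2 ratios were 2.54, 1.65 and 2.15, with a mean of 2.12 ± 0.45 (SD, n = 3), which was 4.33-fold (limma, SE 0.20, adjusted p 0.000210). These ratios overlapped those of *Slc12a2* and *Slc12a4* between mice, although within each mouse *Stk39* had the smallest of the 3.

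*Oxsr1* encodes OSR1, the close relative of SPAK, and its 3 probes lay between log2 ratios of −0.018 and 0.15. The brightest and most 3′ probe (chromosome 9, 119087624 to 119087683, minus strand) had CPE intensities of 9.57, 8.83 and 9.46 and reference intensities of 9.19, 9.26 and 9.46. The groups overlapped, and the mean ratio was −0.018 ± 0.41 (SD, n = 3; limma adjusted p 0.95). With median centring it was 0.43. The next probe (119089862 to 119090415) had a ratio of 0.14 ± 0.12 (adjusted p 0.492), and the most 5′ probe (119117418 to 119117477) was well above background in mouse 3 alone and was not tested.

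*Wnk1*, which encodes the upstream kinase of SPAK and OSR1, had 6 probes on the minus strand of chromosome 6, and they did not give 1 value. The brightest and most 3′ probe (119890412 to 119890471) had CPE intensities of 10.64, 9.53 and 10.70 and reference intensities of 11.10, 10.98 and 10.92. CPE was lower on every array, most in mouse 2, and the mean log2 ratio was −0.71 ± 0.66 (SD, n = 3; limma adjusted p 0.0532). Without mouse 2 it was −0.34 (adjusted p 0.275), and with median centring −0.089. The probe at 119936671 to 119938420 had similar ratios, of −0.33, −1.40 and −0.22. Their mean was −0.65 ± 0.65 (SD, n = 3; limma adjusted p 0.0696), and −0.27 without mouse 2. Its levels did not follow those of the 3′ probe. CPE intensities were 9.00, 8.01 and 7.35 and reference intensities 9.33, 9.41 and 7.56, so both channels were lowest on array 3. The most 5′ probe (120003253 to 120003312) had ratios of 0.51, −0.16 and 0.15, which lay on both sides of 0 (adjusted p 0.500).

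A pair of *Wnk1* probes was called lower in CPE. Both carry clone accessions, as does the probe between them, which was not called. At 119919956 to 119920015 the log2 ratios were −1.44, −1.17 and −1.61 (limma adjusted p 0.000539), and at 119912068 to 119912127 they were −1.28, −1.05 and −1.68 (adjusted p 0.00101). Neither probe rose well above background in the CPE of any mouse, and both did on all arrays in the reference. With CPE values held at or above the lowest intensity of probes well above background, the reference was 2.44-fold higher at the first probe in the mean of 3 arrays. This fold is not a lower limit, because that intensity is a minimum over probes and not a detection limit of this probe. With no background correction the first probe was at −1.07. At the other probe every CPE value already lay at or above that floor, and the fold of 2.52 is the fitted one. This probe was at −0.99 and not called with no background correction. Neither probe was called with limma's treat, which tests for a change beyond 2-fold (adjusted p 0.238 and 0.500). Between them in the genome, the probe at 119914148 to 119914207 had a ratio of 0.20 ± 0.054 (SD, n = 3; adjusted p 0.324) and was well above background in 2 of the 3 CPE samples. No annotation of mm8 was used here, so the exons or introns of these probes are not given.

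**Figure D3:**
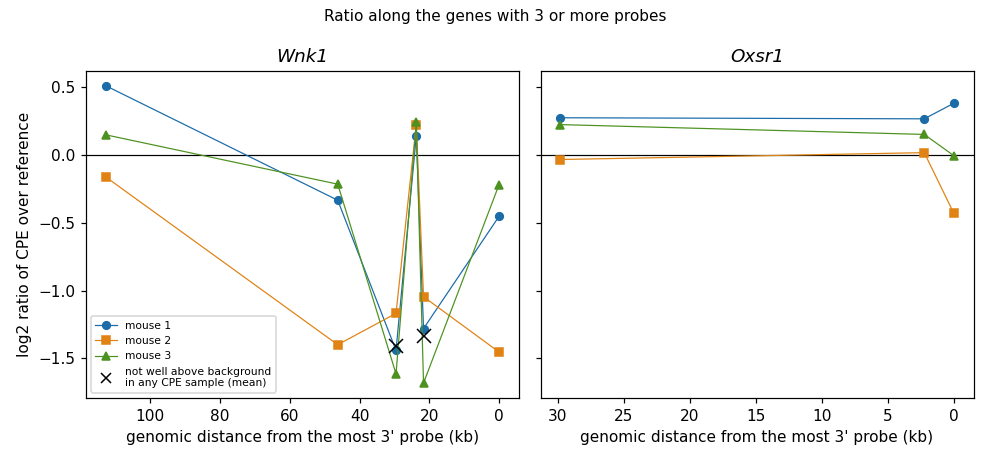
Log2 ratio of CPE over reference (y axis) against genomic distance in kb from the most 3′ probe (x axis, 5′ on the left) for *Wnk1* (6 probes) and *Oxsr1* (3 probes), with a line for each mouse. Crosses mark the *Wnk1* probes that were at background in the CPE of all 3 mice; mouse 2 was the lowest mouse at the most 3′ probe of both genes.

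Mouse 2 was compared with the mean of the other mice in each ratio, because its level was low at several kinase probes. The comparison was thus chosen from these values and made for members only, so how usual such differences are over the array is not known. The difference on the log2 scale was −1.12 at the most 3′ *Wnk1* probe, −1.12 at the probe at 119936671, −0.62 at the most 3′ *Oxsr1* probe and −0.70 at *Stk39*. It was −0.28 and −0.19 at the other *Oxsr1* probes, and −0.49 and 0.034 at the *Wnk1* probes at 120003253 and 119914148. It was −0.32 for *Slc12a2*, 0.016 for *Slc12a4*, 0.43 for *Slc12a5*, and 0.36 and 0.44 at the *Wnk1* probes called lower. Mouse 2 was thus low at the brightest probe of each kinase gene, and not at all probes of these genes or at all members. The SD of the CPE channel between mice was 0.66 at the most 3′ *Wnk1* probe and 0.49 at *Stk39*, against a median of 0.38 over those 17947 probes. The SD of the reference channel at these probes was 0.092 and 0.18, against a median of 0.19. At the *Wnk1* probe at 119936671 the reference SD was 1.04. The CPE level of mouse 2 at that probe differed from the mean of the other mice by only −0.16. Mouse 2, its array and its separate scan day cannot be told apart in these values, since each mouse had 1 array.

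Ranks on the array were then examined in the 4 classes of the study. The high class lies above the 90th percentile of intensity, the moderate class reaches down to the 50th, the low class down to the 10th, and the very low class lies below that. A rank does not order transcripts of different genes by abundance, because probes differ in how well they hybridise. *Slc12a2*, *Slc12a4* and *Stk39* were high in every mouse, a class that by construction holds 10% of all probes. *Slc12a2* lay at percentiles 97.6, 96.7 and 95 in mice 1, 2 and 3, *Slc12a4* at 98.5, 98.3 and 98.2, and *Stk39* at 99.2, 98.4 and 99.2. These 3 genes also ranked lower in the reference, at 82.2, 87.7 and 94.1 for the mean of 3 arrays, so that *Stk39* was above the 90th percentile there as well.

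The most 3′ *Wnk1* probe and *Slc12a7* lay just below the limit of the high class. *Wnk1* lay at 91.5, 83.4 and 92.1 in the 3 mice and at 89.6 for their mean, and *Slc12a7* at 91.3, 86.5 and 87.3 and at 88.9. Without mouse 2, 4 in place of 3 genes were in the high class, *Wnk1* being the fourth. *Slc12a5* was moderate in CPE, at 73.7, and in the reference it lay at 98.7. *Oxsr1* reached 80.9 at its brightest probe, while the most 5′ probe lay at 26.6. Dim probes had no stable rank: *Slc12a3* ranged from 28.2 in mouse 1 to 70.0 in mouse 3, and the *Wnk1* probe at 119919956 from 42.7 in mouse 2 to 0.289 in mouse 3.

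**Figure D4:**
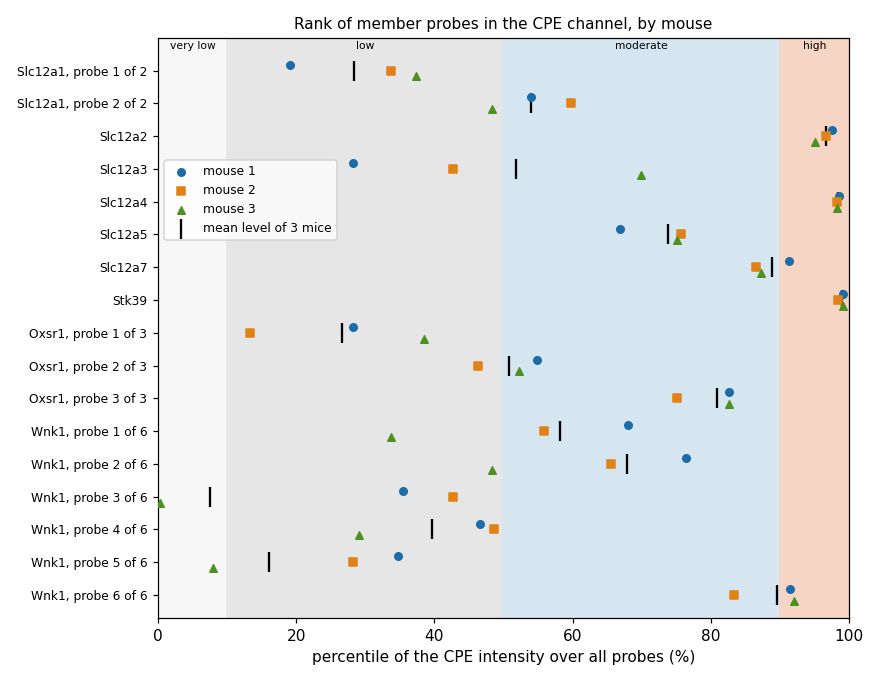
Percentile of the CPE intensity over all probes (x axis) of the 17 member probes (y axis), with a point for each mouse and a tick for the mean level; shading marks the 4 expression classes. Points of *Slc12a2*, *Slc12a4* and *Stk39* all lie in the high class, and dim probes of *Slc12a3* and *Wnk1* spread widely between mice.

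The other genes of the pathway were taken from lists, each gene at its brightest tested probe. Of the 2 other SLC12 genes on the list, 0 were called in the limma fit. *Slc12a9* was at 0.71 (limma adjusted p 0.0155) and missed the call only by the 2-fold limit. It was called higher with median centring, at 1.01, and with the scanner log ratio, at 1.23. *Slc12a8* was at 0.00072, or at −0.19 with median centring.

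Of 10 partners of the WNK pathway, 9 were tested, 1 was called higher and 1 lower, and their median log2 ratio was −0.12. Over all tested genes 8.03% were called higher and 11.1% lower, so these counts do not set the list apart. The gene called higher was *Cab39l*, one of the MO25 scaffold genes, whose proteins bind SPAK and OSR1 and raise their activity. Its log2 ratios were 3.61, 3.25 and 3.58, with a mean of 3.48 ± 0.20 (SD, n = 3), which was 11.2-fold (limma, SE 0.16, adjusted p 1.06e-05), and it lay at percentile 99.7. Its 3 probes differed, from 0.17 to 3.48, and 2 of them were called. Its paralogue *Cab39* had log2 ratios of −0.57, −1.52 and −0.90. Their mean of −0.999 (SE 0.21, adjusted p 0.00752) lay just inside the 2-fold limit. The 3 probes of *Cab39* ranged from −0.999 to −0.48, and none was called in the main fit. At its brightest probe *Cab39* was called lower without mouse 1, at −1.21, and without mouse 3, at −1.05. With median centring it was at −0.41 (adjusted p 0.416).

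The partner called lower was *Nedd4l*, a ubiquitin ligase of ion transport proteins, with ratios of −1.93, −1.85 and −1.05 and a mean of −1.61 ± 0.48 (SD, n = 3; limma adjusted p 0.000880), and its call was lost with treat (adjusted p 0.139). *Sgk1*, a hormone- and stress-induced kinase that phosphorylates the *Nedd4l* product, was not called, at −0.75, and lay at percentile 99.5. Its direction was not settled, since it was at 0.18 with median centring and its other probe, which was not tested, was at 0.42. Of the other WNK kinases, *Wnk2* was at 0.97 (SE 0.21, adjusted p 0.00887), just inside 2-fold, and was called higher with median centring, with the scanner log ratio and without mouse 3. *Wnk4* was at −0.12, or at 0.24 with median centring, and *Wnk3* was not tested. *Cul3* and *Klhl3*, which form the ubiquitin ligase that removes WNK kinases, were at 0.029 and −0.0088, and *Klhl2*, a relative of *Klhl3*, at −0.46. None of these 3 was called, and with median centring they were at 0.74, 0.085 and 0.043. The other *Cul3* probe was at −0.53 and was not called either.

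Of 10 ion movers known to work beside NKCC1 in CSF secretion, 9 were on the array by name and 8 were tested. Of these 8, 5 were called higher in CPE and 1 lower, against 8.03% and 11.1% of all tested genes. Their median log2 ratio was 1.42. The list was made of genes already known for this function, with earlier results of these data known, and *Aqp1* is also among the CPE markers. These counts are thus a description and not a test of the list. Higher were the sodium pump subunit *Atp1b1*, at 2.27, the bicarbonate transporters *Slc4a2* and *Slc4a10*, at 2.89 and 4.18, the carbonic anhydrase *Car2*, at 1.71, and the water channel *Aqp1*, at 1.14. *Aqp1* was not called without mouse 2, at 0.96, or with treat. The potassium channel gene *Kcna1* was lower, at −1.75 (SE 0.19, adjusted p 0.000373). *Atp1b2*, another sodium pump subunit, was not called, at 0.25, but was with median centring, at 1.04. The bicarbonate transporter *Slc4a5* was not called, at −0.085, or at 0.78 with median centring, although its other probe was called higher, at 1.04.

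**Figure D5:**
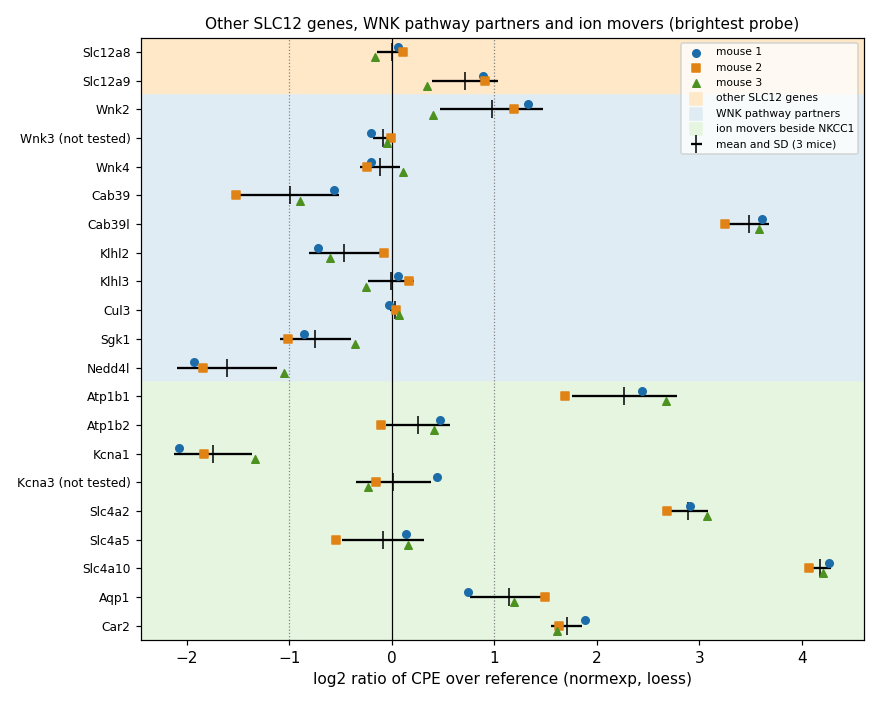
Log2 ratio of CPE over reference (x axis) for the other SLC12 genes, WNK pathway partners and ion movers (y axis, shaded by list), at the brightest probe of each gene, with a point for each mouse, the mean as a tick and the SD as a bar. *Cab39l* lay above 3.2 in every mouse, and *Nedd4l* and *Kcna1* lay below −1 in every mouse.

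The genes whose pattern was most like that of *Slc12a2* were found by Euclidean distance over 6 values, the log2 ratios and the CPE log2 intensities of the 3 mice, among 17842 tested genes. The 5 nearest were *BC056474* (distance 0.572), *Tmem132a* (0.598), *Pcsk2* (0.649), *Cd82* (0.660) and *Mlf2* (0.757). Their log2 ratios were between 2.06 and 2.42 and their percentiles between 96.2 and 97.4. With 3 mice such likeness is a description.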

How the data were processed

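CPE RNA of 3 mice (Cy5) was measured against 1 RPE and choroid reference RNA (Cy3) on 3 arrays. The authors deposited scanner tables made with Agilent Feature Extraction 9.5.3.1, which hold the intensity of each spot and its background in both channels and, per the file headers, the log10 ratio of the processed intensities. A deposited table of log2 values, normalized by the authors with Aquantile (R 2.14.0 and limma per the labels), tracked the CPE channel (rank correlation 0.998 to 0.9997 over probes) and served as an alternative.

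Ratios were computed with R 4.3.3 and limma 3.58.1 after normexp correction (offset 50) on the local background and loess within arrays. Spots that were controls or outliers were dropped, and repeated spots of a probe were averaged. Of 41174 probes, 25843 passed the filter, which asked for signal well above background in the same channel of all 3 arrays, and were tested against 0 in an intercept model with Benjamini-Hochberg adjustment over all of them. A call needed an adjusted p under 0.05 and at least 2-fold. Levels of both channels came after Aquantile. Where a probe was well above background on none of the arrays of a channel, a second fold was computed with its level there held at or above the lowest intensity of probes that were, and it is open to dye bias. Percentiles used log2 mean intensities without background correction, after Aquantile. The number of arrays limits the precision.

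Members and lists were chosen with earlier results of these data known. Named were all 9 members, fixed lists of pathway genes at their brightest tested probe, and the 5 genes nearest to *Slc12a2*. List genes were matched by name, by RefSeq accession without version or by a unique synonym, and 56.8% of probes had a matched accession. Of the member probes, 12 of 17 had one. Coordinates of probes were taken from the scanner files (mm8). A few listed genes are not reported here and are left out of the counts of their lists. Protein sequences and the human arrays were not analysed here. The fit was tested on simulated data, and no paired fit applied, since each mouse had 1 array.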

Additional observations from a re-analysis of the deposited data

How the results depend on the processing

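The scanner background surface was chosen as an alternative after seeing the data. *Slc12a2*, *Slc12a4*, *Stk39* and *Slc12a5* kept their direction and call under all 10 alternatives, with log2 ratios of 2.17 to 3.04, 2.49 to 3.34, 1.90 to 2.89 and −4.90 to −3.95. Of 135 comparisons of a member probe's ratio with an alternative, 130 gave the same call, 2 gained one and 3 lost one. The number of member probes called lower fell from 3 to 1 with limma's treat, whose null hypothesis is a change of up to 2-fold, and to 1 among probes well above background in both channels, a set that leaves out the dim *Wnk1* probes. One of these, at −0.99 with no background correction, also lost its call there. Over all probes, 4462 were called, 1833 higher and 2629 lower. Median centring gave 3744 higher, and the scanner log ratio gave 6762 called and 2850 higher, and the cause was not tested. Treat gave 1414, 455 higher and 959 lower, a stricter test by construction. Leaving out a mouse gave 4029 to 5311 called, 1433 to 2482 higher and 2591 to 2829 lower. Ranking only probes well above background moved 10 member percentiles by more than their SD between mice, and *Slc12a2*, *Slc12a4* and *Stk39* stayed high, at 92.6, 96.4 and 97.7. Without mouse 3 the dim *Wnk1* probes rose from percentiles 7.49 and 16 to 38.6 and 32.1. No paired analysis was possible because there was 1 group of samples.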
